A study of Mus musculus with 23 samples.

Results

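De novo fatty acid synthesis and elongation was followed in mouse CD8+ T cells through 9 genes: Srebf1, Acly, Acss2, Acaca, Mid1ip1, Fasn, Elovl1, Elovl5 and Elovl6. They were taken by symbol from a deposited table of read counts that lists 49492 genes, and all 9 were among the 18015 genes with enough counts to be tested. Levels are given as CPM, counts scaled to a common library size, and changes as log2 fold changes. The T cells came from spleen and carried loxP-flanked Plpp1 alleles, written PLPP1fl/fl, either without Cre (WT in the sample titles) or with Lckcre (KO). Lckcre is a Cre recombinase driven by the promoter of Lck, a kinase gene active in T cells, so the floxed allele is shared by both genotypes and the Cre is present in KO alone. Plpp1 encodes a lipid phosphate phosphatase of the cell membrane. Each genotype was sequenced untreated, after arachidonic acid (AA, a polyunsaturated fatty acid) and after octadecenoic acid (OA, a name that covers oleic acid and its isomers). There were 4 libraries of polyA RNA in each of the 6 groups except KO with OA, which had 3. Doses, exposure times, strain, age and sex were not in the labels used here. The labels also do not say that the libraries of a group came from separate animals or cultures, so the p-values speak of library-to-library spread only, which may be technical.

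Cells build fatty acids in the cytosol from acetyl-CoA. ATP-citrate lyase (Acly) makes acetyl-CoA from citrate and acetyl-CoA synthetase (Acss2) makes it from acetate, acetyl-CoA carboxylase (Acaca) turns it into malonyl-CoA, and fatty acid synthase (Fasn) assembles palmitate. Elongases of the Elovl family then lengthen fatty acyl chains, and the transcription factor SREBP-1, encoded by Srebf1, is known to drive many of these genes. T cells are known to raise the pathway when they are activated and divide.

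Srebf1, Acly, Acaca, Mid1ip1, Fasn and Elovl1 were higher in untreated KO than in untreated WT, by 12% to 35%, while Acss2 and Elovl6 were 13% lower and Elovl5 did not pass the test. AA lowered Fasn, Acaca, Srebf1, Acly, Mid1ip1 and Acss2 in KO and raised Elovl6, with Acss2 at the threshold. In WT only the fall of Srebf1 with AA passed the test, and it did not pass when any 1 of 5 libraries was left out. Acaca and Elovl6 moved in WT in the same direction as in KO without passing. For Mid1ip1, Acss2 and Elovl6 the AA effects did not differ between the genotypes by the interaction test. OA in KO lowered Srebf1 most and Acaca, Acly and Fasn less, with Fasn near the threshold. The AA and OA effects on Fasn, Acaca, Acly and Srebf1 differed between the genotypes by the interaction test.

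**Figure D1:**
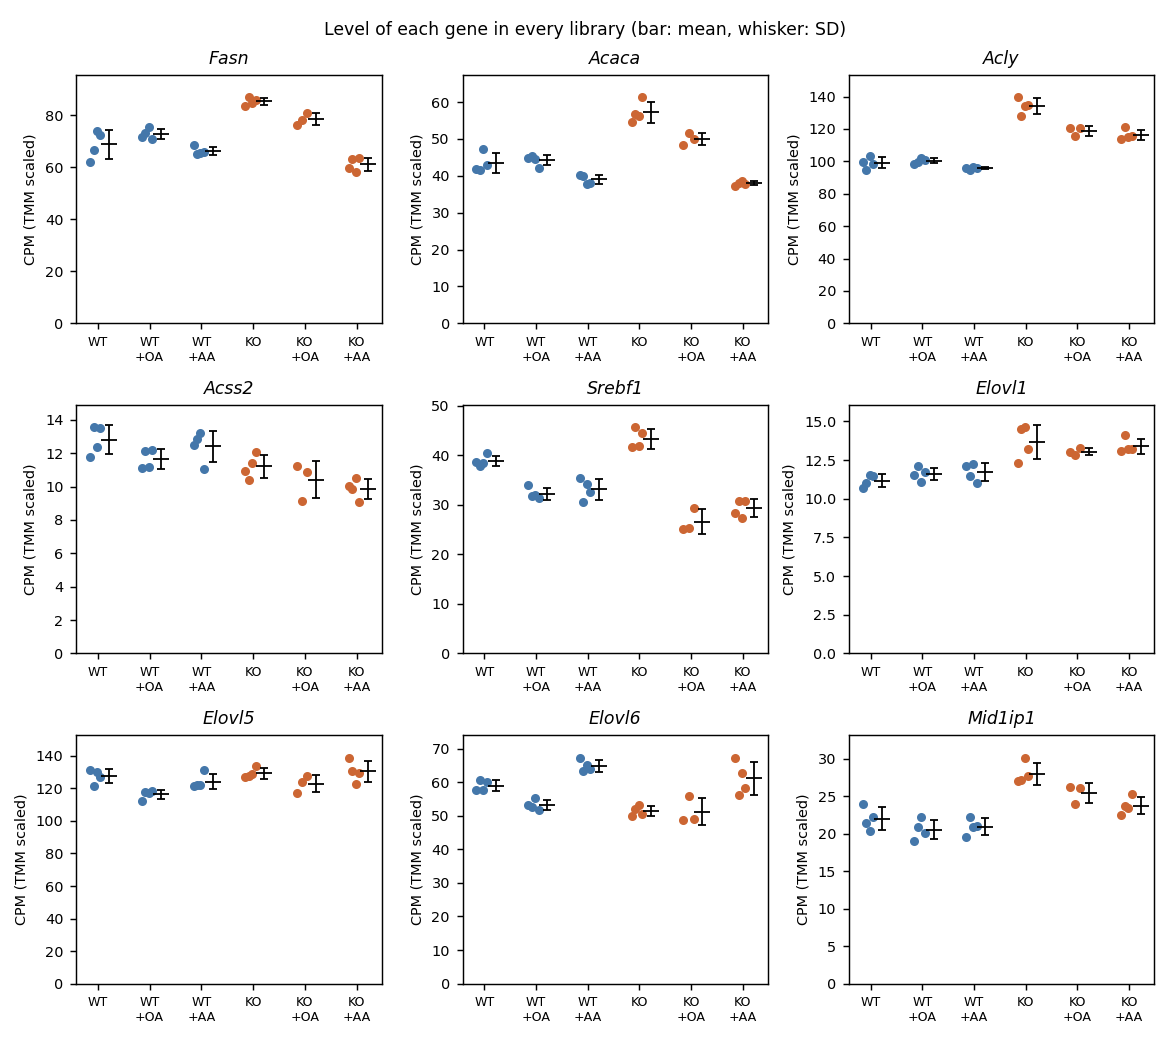
Level of each gene in all 23 libraries, in CPM on a linear axis from 0, with WT libraries in blue and KO libraries in orange. Black bars and whiskers are the group mean and SD. For Fasn, Acaca and Acly the 4 untreated KO libraries stand above every other library, and for Srebf1 the KO libraries run from the highest level of all (untreated) to the lowest (with OA).

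Library totals ran from 39265131 to 58878203 counts, and the genotype could not be read from the targeted gene, since Plpp1 had 0.593 ± 0.191 CPM (SD, n = 12) in WT and 0.561 ± 0.134 CPM (SD, n = 11) in KO. Genes outside the pathway separated the genotypes in every library: Xist had 846 ± 25.8 CPM in WT and 3.96 ± 0.863 CPM in KO, and the receptor genes Trdc and Trbv12-1 had 48.6 and 163 CPM in WT and 1.77 and 7.85 CPM in KO (means over the same libraries). Xist is known to be made from the inactive X chromosome of female cells, and sex was not in the labels used here. The genotype comparisons below cannot be told apart from a difference in sex or from whatever else differed between these sets of libraries. The CD8 T cell genes Cd3e, Cd3d, Cd8a, Cd8b1 and Trac summed to 1507 to 1554 CPM in untreated WT, 1490 to 1606 CPM in WT with either acid, 1398 to 1455 CPM in untreated KO, 1254 to 1339 CPM in KO with AA and 1262 to 1316 CPM in KO with OA. Of these 5 genes, 2 were higher and 3 lower in untreated KO, where 25.6% of all tested genes were higher and 24.2% lower. In KO, 3 of the 5 were lower with AA (15.4% of all genes) and 2 with OA (12.7%). The neutrophil genes S100a8, S100a9 and Ly6g had no count in any, and 4 adipocyte genes summed to at most 0.843 CPM. The NK list of Ncr1, Klrb1c and Eomes summed to 18.4 to 20.8 CPM in untreated WT, 38.4 to 41.7 CPM in untreated KO, 25.7 to 28.4 CPM in KO with AA and 26.5 to 28.0 CPM in KO with OA, nearly all of it Eomes, which CD8 T cells also express. Between untreated WT and untreated KO, 5 dendritic cell genes summed to 13.5 to 17.3 against 7.51 to 9.51 CPM, 4 platelet genes to 8.40 to 10.1 against 3.32 to 4.48 CPM and 3 CD4 T cell genes to 22.7 to 24.9 against 15.1 to 16.4 CPM. In KO, the platelet genes summed to 5.66 to 7.35 CPM with AA and 5.01 to 6.44 CPM with OA, and the dendritic cell genes to 6.91 to 8.75 CPM with AA and 5.58 to 6.75 CPM with OA. The 5 macrophage genes summed to 10.8 to 12.6 CPM in untreated KO, 9.66 to 11.8 CPM in KO with AA and 7.41 to 9.05 CPM in KO with OA, and the CD4 T cell genes to 16.1 to 19.0 CPM with AA and 14.8 to 16.3 CPM with OA. The part of these lists in the results was not tested. In RNA from pooled cells, fewer expressing cells and less RNA per cell cannot be told apart.

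Of 20 cell cycle genes such as Mki67, Top2a and Pcna, all 20 were higher in untreated KO than in untreated WT, where 25.6% of all tested genes were higher. In KO 17 were lower with AA (15.4% of all genes) and 12 with OA (12.7%), and in WT 0 with AA (0.255%) and 1 with OA (2.5%). Their summed level ran from 9290 to 9798 CPM in untreated WT, 9353 to 9501 CPM in WT with AA and 8817 to 9162 CPM in WT with OA. In KO it ran from 12055 to 12442 CPM untreated, 10304 to 11258 CPM with AA and 11419 to 12087 CPM with OA. Its part in the results below was not tested.

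Of the 9 genes, 4 were higher in untreated KO and fell in KO with both acids: Fasn, Srebf1, Acly and Acaca. The fall of Fasn with OA did not pass when any 1 of 6 libraries was left out. SREBP-1 is known to act near the starts of such genes with the factor NF-Y, which binds CCAAT. The sequences before the transcription start of Fasn, Srebf1 and Acly are printed here from RefSeq (build GRCm38.p6). Each runs 5′ to 3′ on the minus strand of chromosome 11 and ends at the base before the start: chr11:120824548-120824797 for Fasn, chr11:60210472-60210721 for the innermost of 3 listed Srebf1 starts, and chr11:100528001-100528250 for Acly. Capitals mark TCACCC, a short core of sterol regulatory elements, and CCAAT or its reverse complement ATTGG.
Fasn: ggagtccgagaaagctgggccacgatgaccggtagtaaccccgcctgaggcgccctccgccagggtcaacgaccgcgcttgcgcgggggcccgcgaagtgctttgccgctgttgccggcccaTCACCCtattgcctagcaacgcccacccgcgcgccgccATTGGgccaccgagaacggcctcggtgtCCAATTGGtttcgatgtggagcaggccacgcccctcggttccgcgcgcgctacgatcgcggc
Srebf1: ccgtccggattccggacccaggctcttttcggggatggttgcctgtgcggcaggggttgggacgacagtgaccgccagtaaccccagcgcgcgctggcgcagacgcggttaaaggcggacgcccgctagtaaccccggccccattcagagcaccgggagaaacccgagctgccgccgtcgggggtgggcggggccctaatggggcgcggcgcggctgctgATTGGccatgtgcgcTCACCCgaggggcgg
Acly: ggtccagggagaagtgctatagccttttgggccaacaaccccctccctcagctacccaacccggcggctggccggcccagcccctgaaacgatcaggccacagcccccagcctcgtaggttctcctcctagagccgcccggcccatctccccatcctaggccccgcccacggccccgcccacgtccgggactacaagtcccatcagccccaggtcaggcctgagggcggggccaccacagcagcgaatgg
The Fasn window held TCACCC 122 bases before the start and 3 CCAAT boxes, of which one on each strand overlap in the run CCAATTGG. The Srebf1 window held a CCAAT box 25 bases and TCACCC 9 bases before the start. The windows of the other listed Srebf1 starts held no TCACCC, and the outermost held a CCAAT box 161 bases before its start. The Acly window held neither motif, and 4 GC boxes (GGGCGG, not in capitals), a motif found in 32.7% of all windows. The Acaca window (chr11:84195188-84195437), which is not printed, held neither TCACCC nor CCAAT. It lay within the gene, which starts at 84129672, so the sequence before that outermost start was not searched. The Mid1ip1 window (chrX:10717115-10717364) likewise lay within its gene. For that window and the middle one of Srebf1, the bases after the start were not found in a reference transcript of the gene. All of these windows are in the counts that follow. Over 12 windows for the 9 genes, searched on both strands, TCACCC was in 3, the third being Acss2, against 13.8% of 32841 RefSeq promoter windows of 250 bases, and CCAAT was in 6, against 33.9%. The longer sterol element TCACNCCAC was in 0 of the 12 and in 1.05% of all windows, the shorter core having been searched after that result was seen. A match is a run of letters and not a shown site.

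Per length of exon, the order of levels in untreated WT was Elovl5, Acly, Mid1ip1, Elovl6, Srebf1, Fasn, Elovl1, Acaca and Acss2, from 36.2 ± 1.23 to 1.26 ± 0.0851 CPM per kilobase (SD, n = 4). Acly stood at 18.8 ± 0.658 CPM per kilobase and Fasn at 6.29 ± 0.512 CPM per kilobase. Srebf1 stood at 6.90 ± 0.193 CPM per kilobase. In untreated KO, Fasn at 7.80 ± 0.133 CPM per kilobase lay between Srebf1 at 7.70 ± 0.355 and Elovl6 at 7.996 ± 0.221 CPM per kilobase.

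**Figure D2:**
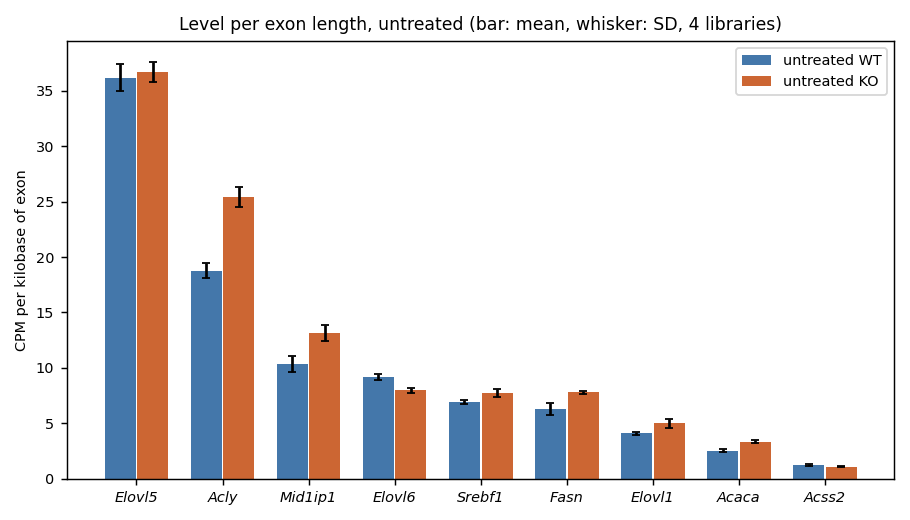
Mean level of each gene per kilobase of exon in untreated WT (blue) and untreated KO (orange), on a linear axis from 0, with whiskers for the SD over 4 libraries. Elovl5 and Acly are the most abundant per length, and Acaca and Acss2 the least.

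Srebf1 (GRCm38, chr11:60199089-60222581, minus strand) encodes SREBP-1. Its level was 38.6, 37.9, 38.6 and 40.4 CPM in the untreated WT libraries and 41.6, 45.7, 41.8 and 44.5 CPM in the untreated KO libraries. With AA it was 35.4, 30.5, 34.2 and 32.6 CPM in WT and 28.5, 30.8, 27.3 and 30.9 CPM in KO. With OA it was 34.1, 31.8, 32.0 and 31.4 CPM in WT and 25.2, 25.3 and 29.5 CPM in KO. Untreated KO libraries were thus all above untreated WT, while with OA all KO libraries were below all WT libraries, and with AA the genotypes overlapped in single libraries. Accordingly Srebf1 was 1.12-fold higher in untreated KO (log2 0.16 ± 0.05 SE, adjusted p = 0.00948) and lower in KO with AA (log2 -0.18 ± 0.05 SE, adjusted p = 0.00595) and with OA (log2 -0.28 ± 0.06 SE, adjusted p = 0.000135). Adjusted p-values here and below come from the quasi-likelihood F test of edgeR, corrected by Benjamini-Hochberg over all 18015 genes. In KO the fall was by 0.56 on the log2 scale with AA (adjusted p = 1.05e-10) and by 0.71 with OA (adjusted p = 1.01e-11). In WT it was by 0.23 with AA (adjusted p = 0.0299) and by 0.27 with OA (adjusted p = 0.00106). The WT effect of AA lost its call without any 1 of 5 libraries (WT replicates 1, 3 and 4, WT with AA replicates 2 and 4; adjusted p from 0.0527 to 0.186). The fall was larger in KO than in WT by 0.34 ± 0.07 SE with AA (interaction log2 -0.34, adjusted p = 0.00134) and by 0.44 ± 0.08 SE with OA (interaction log2 -0.44, adjusted p = 0.00016).

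Acly (chr11:100476353-100528000, minus strand), the citrate lyase, had 99.5, 94.9, 103.3 and 98.6 CPM in untreated WT and 139.7, 128.0, 133.9 and 135.1 CPM in untreated KO. KO with AA had 114, 121, 115 and 115 CPM, and KO with OA 120.9, 115.5 and 120.5 CPM, while WT with AA stayed at 94.6 to 96.7 CPM and WT with OA at 98.5 to 102 CPM. Every KO library of any treatment was above every WT library, and untreated KO was above KO with either acid. The log2 difference of KO over WT was 0.44 ± 0.03 SE untreated (adjusted p = 6.3e-14), 0.28 ± 0.03 SE with AA (adjusted p = 5.71e-09) and 0.25 ± 0.03 SE with OA (adjusted p = 3.47e-07). In KO, Acly fell by 0.20 with AA (adjusted p = 5.25e-06) and by 0.17 with OA (adjusted p = 0.000256) on the log2 scale. In WT the log2 values were -0.05 (95% confidence interval -0.11 to 0.02) and 0.02 (-0.05 to 0.08), which did not pass the test. The interaction was -0.19 for OA (adjusted p = 0.00569) and -0.16 for AA (adjusted p = 0.0159). The AA interaction lost its call without any 1 of 5 libraries (WT replicate 4, WT with AA replicates 1, 3 and 4, KO with AA replicate 1; adjusted p from 0.0611 to 0.0688).

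Acss2 (chr2:155517948-155585724, plus strand), which makes acetyl-CoA from acetate, went the other way from Acly by genotype. It ran from 11.8 to 13.5 CPM in untreated WT, 11.04 to 13.2 CPM in WT with AA and 11.1 to 12.2 CPM in WT with OA. In KO it ran from 10.4 to 12.1 CPM untreated, 9.06 to 10.5 CPM with AA and 9.13 to 11.2 CPM with OA. Neighbouring groups in the order of levels overlapped throughout. Acss2 was lower in KO untreated (log2 -0.19, adjusted p = 0.0218) and with AA (log2 -0.33, adjusted p = 0.000192), and with OA the log2 value of -0.16 (95% confidence interval -0.32 to -0.01) missed the threshold at an adjusted p of 0.09. The untreated call was lost without WT replicate 2 (adjusted p = 0.0797) or KO replicate 2 (adjusted p = 0.0845). The AA effect in KO, a log2 change of -0.19, sat at the threshold (adjusted p = 0.0499). It was lost without KO replicate 1, 3 or 4 or KO with AA replicate 1, 2 or 4, with adjusted p from 0.0625 to 0.168. Exons of Acss2 overlap those of Gss, Acss2os and Ggt7 on the opposite strand by 395, 335 and 197 bases, so its counts could include reads of these genes if strand was not used.

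Acaca (chr11:84129672-84401651, plus strand), the carboxylase of the committed step, had 41.8, 41.4, 47.3 and 42.8 CPM in untreated WT and 54.7, 56.6, 56.2 and 61.3 CPM in untreated KO. With AA, WT had 40.3, 39.9, 37.8 and 38.1 CPM and KO 37.2, 38.2, 38.5 and 37.9 CPM. With OA, WT had 44.8, 45.5, 44.6 and 42.1 CPM and KO 48.4, 51.6 and 50.04 CPM. The genotypes were separate untreated and with OA, and with AA they overlapped. In KO, Acaca had the largest AA estimate of the 9 genes, followed by Srebf1 with an overlapping interval: a fall by 0.59 ± 0.04 SE on the log2 scale (0.663-fold, adjusted p = 2.44e-13), and with OA it fell by 0.19 (adjusted p = 0.00154). In WT, AA gave a log2 value of -0.15 (95% confidence interval -0.24 to -0.06, adjusted p = 0.167) and OA one of 0.03 (-0.06 to 0.12). The interaction was -0.44 with AA (adjusted p = 2.33e-06) and -0.23 with OA (adjusted p = 0.0136), the latter lost without KO with OA replicate 1 (adjusted p = 0.0506). KO over WT was 0.40 untreated (adjusted p = 4.69e-10), 0.18 with OA (adjusted p = 0.00193) and -0.04 with AA (95% confidence interval -0.13 to 0.05).

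Mid1ip1 (chrX:10715013-10719690, plus strand) encodes a protein known to promote the polymerisation of acetyl-CoA carboxylase. Untreated WT had 23.9, 21.5, 20.3 and 22.2 CPM, and untreated KO had 27.0, 27.1, 30.2 and 27.7 CPM. KO with AA had 22.5, 23.7, 23.5 and 25.4 CPM and KO with OA 26.3, 23.9 and 26.1 CPM, while the 8 WT libraries with either acid ran from 19.1 to 22.2 CPM. Within each treatment every KO library was above every WT library, by log2 values of 0.35 untreated (adjusted p = 1.89e-06), 0.31 with OA (adjusted p = 6.7e-05) and 0.18 with AA (adjusted p = 0.00783). AA lowered Mid1ip1 in KO by a log2 value of -0.24 (adjusted p = 0.000957), and the interaction of -0.17 did not pass (adjusted p = 0.166). Over 543 bases, or 25.5% of its exon length, Mid1ip1 overlaps Gm14493 on the opposite strand, which had 11.9 ± 1.26 CPM in untreated WT and 14.4 ± 1.08 CPM in untreated KO (SD, n = 4). Reads of the pair could not be told apart if strand was not used. Mid1ip1 is the only X-linked gene of the 9, and Xist separated the genotypes. The part of sex in the Mid1ip1 difference was not tested.

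Fasn (chr11:120805846-120824547, minus strand), the synthase, had 61.9, 66.7, 74.1 and 72.6 CPM in untreated WT and 83.7, 87.1, 84.8 and 86.0 CPM in untreated KO. With AA it had 68.6, 65.2, 65.6 and 65.8 CPM in WT and 59.9, 63.2, 58.1 and 63.5 CPM in KO. With OA it had 71.7, 73.4, 75.4 and 71.0 CPM in WT and 76.3, 78.3 and 81.0 CPM in KO. Untreated KO was above all other groups and KO with AA below all WT libraries that received AA. Fasn was 1.24-fold higher in untreated KO (log2 0.31 ± 0.04 SE, adjusted p = 6.94e-08). In KO, AA lowered it to 0.716-fold (log2 -0.48 ± 0.04 SE, adjusted p = 2.53e-11), and OA gave a log2 value of -0.12 (adjusted p = 0.0463). The OA call was lost without any 1 of 6 libraries (KO replicates 1 to 4, KO with OA replicates 1 and 2), with adjusted p from 0.0508 to 0.195. In WT the values were -0.05 with AA (95% confidence interval -0.14 to 0.03) and 0.08 with OA (-0.0021 to 0.17). The interaction was -0.43 with AA (adjusted p = 2.56e-06) and -0.20 with OA (adjusted p = 0.0232), the latter lost without WT replicate 1 or 2, WT with OA replicate 2, or KO with OA replicate 1 or 2 (adjusted p from 0.0529 to 0.0769). With AA, KO over WT was -0.12 (adjusted p = 0.0235), lost without WT with AA replicate 1 or KO with AA replicate 1 or 3 (adjusted p from 0.0575 to 0.1). With OA it was 0.11 (adjusted p = 0.0488), lost without WT with OA replicate 1, 2 or 4 or KO with OA replicate 2 or 3 (adjusted p from 0.0774 to 0.194).

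Of the elongases, Elovl6 (chr3:129532355-129638495, plus strand), which lengthens palmitate to stearate, was lower in untreated KO and higher with AA in KO. It had 57.7, 60.6, 57.5 and 59.9 CPM in untreated WT and 50.02, 52.1, 53.1 and 50.5 CPM in untreated KO. With AA it had 67.3, 63.4, 65.1 and 63.8 CPM in WT and 67.2, 56.3, 62.7 and 58.2 CPM in KO. With OA it had 53.2, 52.7, 55.4 and 51.7 CPM in WT and 48.6, 55.8 and 49.1 CPM in KO. Libraries with AA were above untreated ones in both genotypes, and the genotypes overlapped with either acid. Elovl6 was lower in untreated KO (log2 -0.20 ± 0.05 SE, adjusted p = 0.000457) and rose with AA in KO (log2 0.25 ± 0.05 SE, adjusted p = 6.01e-05). In WT, AA gave a log2 value of 0.14 (adjusted p = 0.29) and OA one of -0.15 (adjusted p = 0.064). The OA value in WT passed the threshold with DESeq2 (adjusted p = 0.0404). Neither interaction passed (adjusted p = 0.299 for AA and 0.192 for OA).

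Elovl1 (chr4:118428093-118432953, plus strand), which extends saturated and monounsaturated chains to very long lengths, was higher in KO under all 3 conditions. It ran from 10.7 to 12.3 CPM over the 12 WT libraries and from 12.3 to 14.6 CPM over the 11 KO libraries. KO over WT was 0.29 untreated (adjusted p = 8.07e-05), 0.20 with AA (adjusted p = 0.00587) and 0.17 with OA (adjusted p = 0.0292) on the log2 scale. The call with OA was lost without WT with OA replicate 1 or 3 or KO with OA replicate 1 or 3 (adjusted p from 0.0618 to 0.0869), and with the low-count filter dropped (adjusted p = 0.131). No effect of an acid on Elovl1 passed in either genotype. Elovl5 (chr9:77917364-77984519, plus strand), which extends polyunsaturated chains, ran from 112 to 139 CPM over all 23 libraries. Its KO over WT difference was 0.02 untreated (95% confidence interval -0.05 to 0.10), 0.07 with AA (-0.0035 to 0.15) and 0.08 with OA (-0.0005 to 0.16). It fell with OA in WT (log2 -0.13, adjusted p = 0.0342), where WT with OA ran from 112 to 118 CPM and untreated WT from 121 to 131 CPM. That call was lost without WT replicate 1 or 3 or WT with OA replicate 1 or 3 (adjusted p from 0.0626 to 0.114).

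**Figure D3:**
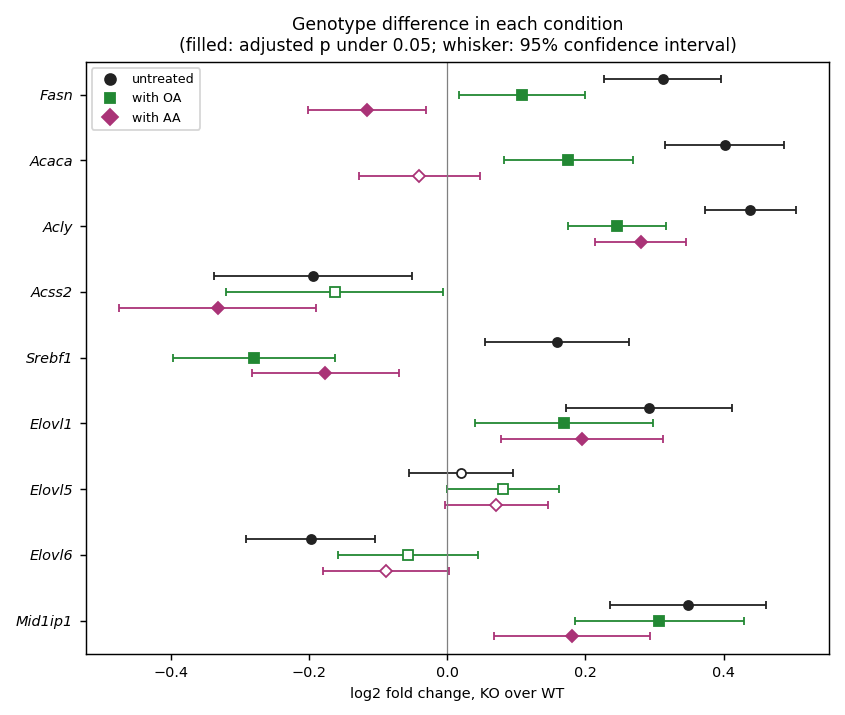
Log2 fold change of KO over WT for each gene, untreated (black circles), with OA (green squares) and with AA (purple diamonds), with 95% confidence intervals and filled symbols where the adjusted p was under 0.05. Srebf1 lies at 0.16 untreated and at -0.28 and -0.18 with OA and AA, while Acly, Elovl1 and Mid1ip1 stay above 0 in all 3 conditions.

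As a set, 8 of the 9 genes passed the test between untreated KO and untreated WT, 6 higher and 2 lower, where 49.8% of all tested genes passed, 25.6% higher and 24.2% lower. Their median log2 difference was 0.29, and that of all tested genes was -0.0029. With AA, 3 were higher and 3 lower in KO (42.7% of all genes passed, 21.5% higher and 21.2% lower). With OA, 5 were higher and 1 lower (43.1% of all genes passed, 21.7% higher and 21.4% lower). With shares of this size among all genes, the counts by genotype say little about the 9 genes alone. The fatty acid comparisons had a lower background in WT, where AA lowered 1 of the 9 (0.416% of all genes passed, 0.161% higher and 0.255% lower) and OA lowered 2 (3.73% passed, 1.23% higher and 2.5% lower). In KO, AA lowered 6 and raised 1, where 27.6% of all genes passed, 15.4% lower and 12.2% higher. OA in KO lowered 4 and raised 0, where 23.2% of all genes passed, 12.7% lower and 10.5% higher. The median log2 change of the 9 in KO was -0.20 with AA and -0.12 with OA, and that of all genes was -0.01 in both. The interaction was negative and passed for Fasn, Acaca, Acly and Srebf1 with AA, and for these 4 with OA, and none of the 9 had a positive one that passed. Of all genes, 13.9% passed for AA, 7.98% lower and 5.97% higher, and 12.5% for OA, 6.62% lower and 5.9% higher. The genotype comparison without acid, the acid comparisons within a genotype and the interactions share untreated libraries, so those values are not independent of each other.

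**Figure D4:**
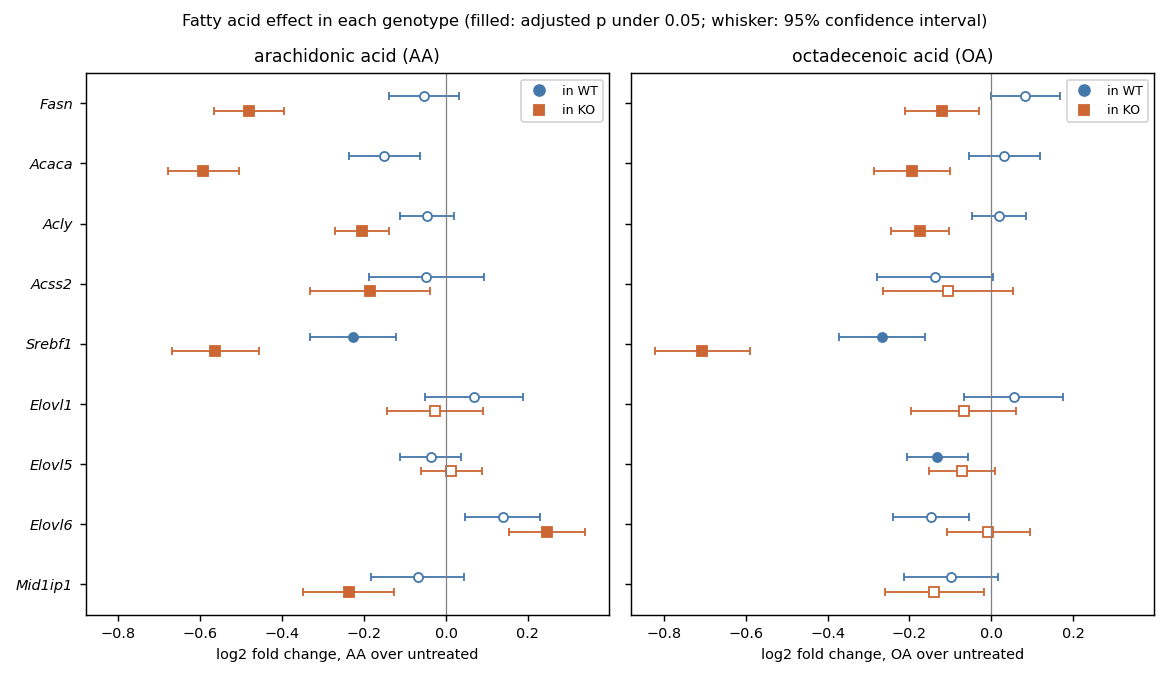
Log2 fold change with AA (left) and OA (right) over untreated, in WT (blue circles) and KO (orange squares), with 95% confidence intervals and filled symbols where the adjusted p was under 0.05. With AA the KO values of Fasn, Acaca and Srebf1 lie between -0.48 and -0.59 while the WT values lie between -0.05 and -0.23, and with OA Srebf1 lies lowest in KO at -0.71.

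The direct comparison of the acids separated 3 genes. Elovl6 was higher with AA than with OA in WT (log2 0.29, adjusted p = 8.09e-05) and in KO (log2 0.25, adjusted p = 0.000371). Acaca was lower with AA than with OA in WT (log2 -0.18, adjusted p = 0.0116) and in KO (log2 -0.40, adjusted p = 8.08e-08), and Fasn was lower in KO (log2 -0.36, adjusted p = 3.44e-07). In WT the Fasn value of -0.14 (95% confidence interval -0.22 to -0.05) missed the threshold at an adjusted p of 0.0693 and passed it with DESeq2 (adjusted p = 0.0455). Srebf1 did not pass in either genotype, at 0.04 in WT (-0.07 to 0.15) and 0.14 in KO (0.03 to 0.26, adjusted p = 0.098). Without KO with OA replicate 3, the highest of its group, the Srebf1 value in KO was 0.22 (adjusted p = 0.0175), and without KO with AA replicate 3 it was 0.18 (adjusted p = 0.0497). In WT 1 of the 9 was higher and 1 lower, where 2.95% of all genes passed, 1.95% higher and 0.999% lower. In KO 1 was higher and 2 lower, where 14% of all genes passed, 6.73% higher and 7.3% lower. The labels give no doses, so the acids may not have been compared at matched doses.

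Other genes of the pathway were read from lists of suppliers, partners and regulators. Their counts in untreated KO stand against 25.6% of all genes higher and 24.2% lower, those with AA in KO against 12.2% and 15.4%, and those with OA in KO against 10.5% and 12.7%. Among 11 tested genes for the supply or use of citrate, acetate, acetoacetate and reducing power, 8 were higher and 3 lower in untreated KO. Among them Aacs (acetoacetyl-CoA synthetase) was 0.74 higher and Me2 (a mitochondrial malic enzyme) 0.60 higher on the log2 scale, and Acss1 (the mitochondrial acetate enzyme) had a value of -0.46 (adjusted p = 5.63e-13, 8.91e-18 and 1.13e-12). With AA in KO 6 of the 11 fell and 0 rose, among them Aacs at -0.53 and the citrate carrier Slc25a1 at -0.39 (adjusted p = 4.98e-09 and 0.00179). With OA in KO 5 fell and 0 rose, and with AA in WT 0 passed the test.

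Of 8 tested partners and regulators of the carboxylase and synthase, 4 were higher in untreated KO and 0 lower. The list mixes genes that serve these enzymes with genes known to restrain synthesis, such as Mlycd and the AMPK subunits Prkaa1, Prkab1 and Prkag1. Its count therefore has no single direction for synthesis. Hlcs, which attaches biotin to carboxylases, was 0.35 higher (adjusted p = 6.83e-08) and fell with AA and OA in KO, at -0.19 and -0.24 (adjusted p = 0.00182 and 0.000569). Of 7 tested partners of the elongases, 3 were higher in untreated KO, 0 lower and 4 did not pass, with a median log2 value of -0.07. The 3 were Hsd17b12, Tecr and Hacd2, enzymes that act in each round of elongation. They were higher by 0.45, 0.32 and 0.40 (adjusted p = 1.42e-11, 4.91e-06 and 0.000376). None of these 3 passed for either acid in KO or WT. Of 8 tested genes of the separate mitochondrial synthesis pathway, 4 were higher and 0 lower in untreated KO, with Mecr, its enoyl reductase, at 0.62 (adjusted p = 3.57e-09).

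Among 14 tested genes of SREBP and LXR control, 5 were higher and 6 lower in untreated KO. Insig1, which retains the SREBP precursor in the endoplasmic reticulum, was 0.61 higher and Srebf2, the sterol paralogue of Srebf1, 0.38 higher (adjusted p = 1.18e-12 and 9.65e-11). Mlxip and Usf2 went the other way. Mlxip had 77.7 to 85.6 CPM in untreated WT and 56.0 to 65.3 CPM in untreated KO. Usf2 had 150 to 162 CPM in untreated WT and 126 to 131 CPM in untreated KO. With AA in KO, 5 of the 14 rose and 3 fell, Mbtps1, a protease that activates SREBP, rising by 0.14 (adjusted p = 0.00253). With OA in KO 1 rose and 2 fell, and in WT AA lowered 2 and OA 1. Insig1 fell with AA in WT at -0.48 and in KO at -0.47 (adjusted p = 2.28e-07 and 2.07e-09), and its interaction with AA was 0.01 (adjusted p = 0.945). Srebf2 had a negative interaction with both acids, -0.17 for AA and -0.37 for OA (adjusted p = 0.0226 and 1.94e-05). Of 8 tested desaturases, which place double bonds in the chains, AA lowered 3 in WT and 3 in KO, OA lowered 4 in WT and 5 in KO, and neither raised any. Scd1, Scd2 and Fads2 were among the lowered genes in each of these comparisons. In WT the AA changes of Scd1, Scd2 and Fads2 stood at -0.57, -0.29 and -0.79 and in KO at -1.75, -0.97 and -1.13, larger than those of any of the 9 genes in the same comparison.

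The genes whose 6 group means ran closest to those of Fasn were Pus7l, Pam16, Far1os and Ankrd37, at distances of 0.0795 to 0.114. Those closest to Srebf1 were RP23-390K13.7 and RP23-390K13.6, which had the same distance of 0.141, then Tspan2 at 0.167 and Rab11fip4 at 0.176. The RP23 entries had the same mean and SD in all 6 groups, such as 2.68 ± 0.636 CPM (SD) in untreated WT. They therefore do not stand as separate genes here. The distance is Euclidean over the 6 centred group means of log2 CPM, and its median over 10171 candidate genes was 0.462 for Fasn and 0.66 for Srebf1.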

How the data were processed

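PolyA RNA of 23 libraries in 6 groups was sequenced from stranded libraries. Per the submitters' processing notes, reads were trimmed with Trimmomatic 0.36 and counted per gene with featureCounts of Subread 1.5.1 on GRCm38. Aligner, annotation release and strand and read-pair settings were not given in the sources used here. Deposited values are raw counts per gene, and the exon length in bases is the other deposited quantity used. Of counts from 1 to 19, 66.5% to 70.7% per library were even. The 9 genes, the gene lists and the tests were chosen with earlier results of these data known. All 9 are named in every comparison. Other listed genes are named from the 4 with the smallest adjusted p per list and comparison. Xist, Trdc, Trbv12-1, the levels of Mlxip and Usf2 and the AA interaction of Insig1 were instead chosen after their values were seen.

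Counts were filtered with filterByExpr (minimum count 10, minimum total 15), leaving 18015 genes with 99.964% of counts, and scaled with TMM factors of 0.961 to 1.034. edgeR 4.0.16 (R 4.3.3, limma 3.58.1) fitted 1 mean per group over all 23 libraries (17 residual degrees of freedom), and 11 contrasts were tested by quasi-likelihood F test at an adjusted p of 0.05, Benjamini-Hochberg over all genes within each contrast. Standard errors and 95% confidence intervals come from this fit. CPM values use TMM-scaled totals. The code was tested on simulated data. Alternatives were DESeq2 1.42.0, upper quartile or RLE scaling, all genes unfiltered, a filter of 1 CPM in 3 libraries, a fit of the compared groups only, a replicate block and each library left out. No replicate pair within a group agreed within sampling noise (chi-square per degree of freedom 3.25 to 17.3).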

Additional observations from a re-analysis of the deposited data

Results flagged for a closer look

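Each of the 9 genes was looked at in each group of 4 libraries, which gave 45 sets that reuse the same libraries. In 2 of the 45, 1 library lay far from the other 3, where chance gives about 1 in 20. Elovl1 in KO with AA replicate 2 was at 14.1 CPM, with the others between 13.1 and 13.2 CPM. Elovl5 in WT with AA replicate 4 was at 131 CPM, with the others between 121 and 122 CPM; without it, the KO over WT difference of Elovl5 with AA was 0.10 on the log2 scale and passed the test (adjusted p = 0.0361, edgeR).

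The effect of a fatty acid differed between the genotypes for 4 genes with each acid, by the interaction in edgeR's quasi-likelihood test. For AA the log2 interaction was -0.43 for Fasn, -0.44 for Acaca, -0.16 for Acly and -0.34 for Srebf1. For OA it was -0.20 for Fasn, -0.23 for Acaca, -0.19 for Acly and -0.44 for Srebf1. In each case the KO value was the lower one. Of the 20 cell cycle genes, 14 had a negative interaction with AA that passed (7.98% of all genes) and 6 with OA (6.62%). A positive interaction passed for 0 with AA (5.97% of all genes) and 1 with OA (5.9%). The part of the cell cycle genes in the values above was not tested.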

How the results depend on the processing

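No log2 value of a called comparison turned its sign under the alternatives run. Values of the 9 genes were compared under other tools, scalings, filters, sample sets and the replicate block. Of 693 such values, 669 kept their call or lack of one, 18 lost a call and 6 gained one. Of 900 with 1 library left out, 847 kept their call or lack of one, 46 lost a call and 7 gained one. Values that passed in neither fit could change sign. For Elovl5 between untreated genotypes, 0.02 became -0.0026 to 0.04 with 1 library left out. Calls that changed included Srebf1 with AA in WT, Acss2 with AA in KO, Fasn with OA in KO and between genotypes with either acid, Elovl1 between genotypes with OA, Elovl5 and Elovl6 with OA in WT, and the Acly and Fasn interactions. With 1 library left out, the number of the 9 genes called ranged from 0 to 1 for AA in WT, from 1 to 2 for OA in WT and from 2 to 4 for the OA interaction, where the 2 came without KO with OA replicate 1. Over all genes, 75 were called for AA in WT, against 137 with DESeq2 and 48 without WT replicate 1, and 672 for OA in WT, against 436 without WT replicate 2; AA against OA in WT called 531, and 349 to 412 with 1 library left out. The cause was not tested. OA in WT called 3 of the 9 in place of 2 with DESeq2, upper quartile scaling, no filter or the compared groups only, Elovl6 being the third.

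Replicate numbers did not pair the libraries: over 55 same-numbered pairs the correlation of deviations from group means ran from -0.54 to 0.46, and 1 of 23 libraries correlated best with its own number. With a replicate block the number of the 9 genes called was 0 for AA in WT (Srebf1, adjusted p = 0.0538), 6 for AA in KO and 3 for OA in KO, and as without the block in the other comparisons. Upper quartile scaling and no filter left 4 of the 9 called between genotypes with OA in place of 6.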
